A study of Mus musculus with 9 samples.

Results

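The comparison described here set dorsal pancreatic epithelia of mouse embryos that had lost an allele of both Sox9 and Pdx1 against epithelia that had lost an allele of Sox9 alone. It compared 6 of the 9 arrays of the series, 3 labelled Sox9Pdx1D-het and 3 labelled Sox9het, chosen by their genotype labels, over all 18541 genes of the value table. The question was what loss of a Pdx1 allele adds to loss of a Sox9 allele. The Sox9 heterozygotes were Sox9fl/+ with the Foxa3-Cre transgene, in which a Cre recombinase under Foxa3 regulatory sequence deletes the floxed copy. The double heterozygotes carried the same floxed allele and the same transgene, and in addition a Pdx1-/+ genotype, the Pdx1LacZko allele. Both compared groups therefore shared the Sox9 deletion and the Cre, and the Pdx1 allele was the labelled difference between them. Pdx1 heterozygotes (Pdx1-/+, 3 arrays, with neither the floxed allele nor the Cre in their label) are given beside named genes as further values, without a test. Their 3 arrays also entered the statistical fit (limma), so the spread behind its standard errors, p-values and calls came from all 9 arrays. All embryos were littermates at e12.5, and by the labels each array held RNA of 3 pooled embryos labelled with Cy3 on 1-colour Agilent arrays. No wild-type arrays were analysed here, so every value below is relative to an epithelium that already lacks a Sox9 allele.

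Pdx1 is a homeodomain transcription factor and Sox9 is an HMG-box transcription factor. Both are made in the multipotent progenitors of the pancreatic bud, where Sox9 maintains the progenitor pool and the signal response of the epithelium, and Pdx1 is needed for outgrowth of the bud and later for beta-cell identity. The pancreatic bud arises beside the duodenum, stomach and liver, and progenitors with too little of these factors are known to take up features of neighbouring gut.

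The dissected tissue carried the epithelial and pancreatic genes its label names. The epithelial adhesion gene Epcam lay between 8849 and 10988 intensity units on all 9 arrays, the digestive enzyme gene Cpa1 between 74082 and 112072, and Ptf1a and Nkx6-1, progenitor transcription factors, between 1555 and 2345 and between 5731 and 8053. Array medians lay between 347 and 353, so the arrays were on 1 scale. Intensities of different probes cannot be set against each other, and dim probes near 100 understate a fold. In bulk epithelium, fewer cells of a type and less RNA per cell cannot be told apart. Replicate 3 of the double heterozygotes stood apart. It is titled as replicates 3 and 4 together, and whether it holds RNA of more than 1 sample is not stated. Its correlation with the other arrays over all genes ran from 0.980 to 0.992. Among genes whose other 2 arrays of the group lay within 1.5-fold of each other, it carried the most at least 2-fold above both, 70 against 49 and 43. Many of the differences described below that it moves by over 1.5 times are also given without it. None of the 57 called genes named below is moved that far by leaving it out.

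Sox9 itself read 294, 294 and 325 in the Sox9 heterozygotes and 292, 328 and 381 in the double heterozygotes. The groups overlapped, and the log2 difference of 0.13 (SE 0.11) did not pass (limma adjusted p = 0.470, exact permutation p = 0.4, two-sided). Without replicate 3 of the double heterozygotes the Sox9 difference was 0.03. Pdx1, listed under its older symbol Ipf1, read 1316, 1573 and 1502 in the Sox9 heterozygotes and 1203, 1143 and 1352 in the double heterozygotes. Its highest double heterozygote lay above the lowest Sox9 heterozygote, and the log2 difference of -0.25 (SE 0.09) did not pass either (limma adjusted p = 0.139, exact permutation p = 0.2, two-sided, where 3 against 3 arrays cannot go below 0.1). The Pdx1 heterozygotes read 1132, 1098 and 1080 for Pdx1 and 239, 198 and 234 for Sox9. Their Sox9 values lay wholly below both groups labelled with the Sox9 deletion, the opposite of the order the labels give. No label or file places these probes inside or outside the altered parts of both genes, so their values do not check the genotypes.

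Of the 18541 genes, 57 passed limma's test at an adjusted p under 0.05, which is 0.307% of those tested. Of these, 17 rose in the double heterozygotes (0.0917% of the genes) and 40 fell (0.216%). In all 57 the 3 double heterozygotes lay wholly above or wholly below the 3 Sox9 heterozygotes, as they did in 35.3% of all genes. The smallest change among the 57 was 0.44 and the median 0.76 in size on the log2 scale. At least a 2-fold change was seen in 11 of them, 4 higher and 7 lower. The spread in this fit came from all 9 arrays, and a fit on the 6 compared arrays alone called 3 genes. Gip, G6pc2 and Dct kept their call with any single array of the compared groups left out. The other 54 lost it at least once, since leaving out 1 array brought the total down to as few as 4 genes (without replicate 1 of the double heterozygotes). An unadjusted p under 0.05 was reached by 27.4% of genes. In the authors' deposited table, 4292 genes (23.1%) lie under an FDR of 0.05 in this comparison, and they include all 57. Of those 4292 genes of the authors' deposited table, 677 have groups that overlap. Among the 45 of them with at least a 2-fold change, 11 passed limma's test and 12 overlapped.

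Gip gave the largest decrease among the 57 called genes. It encodes the incretin hormone glucose-dependent insulinotropic polypeptide, made by enteroendocrine K cells of the gut. Its probe read 442, 416 and 385 in the Sox9 heterozygotes and 109, 89 and 101 in the double heterozygotes. The double heterozygotes all lay far below the Sox9 heterozygotes, in the range of dim probes. The level was 4.16-fold lower, a log2 difference of -2.06 (SE 0.11, limma adjusted p = 0.00017), and the Pdx1 heterozygotes read 121, 96 and 104.

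Adra2a and G6pc2, both of the list of glucose sensing and insulin secretion, were among the next largest. Adra2a, the alpha-2A adrenergic receptor that restrains insulin release in beta cells, read 2241, 1773 and 1522 against 652, 704 and 439. The groups were far apart, with a 3.11-fold decrease (log2 -1.64, SE 0.19, limma adjusted p = 0.0178), and the Pdx1 heterozygotes read 635, 524 and 584. G6pc2, the catalytic subunit of the islet glucose-6-phosphatase, read 378, 355 and 336 against 151, 131 and 112. It fell 2.73-fold (log2 -1.45, SE 0.12, limma adjusted p = 0.00362), with Pdx1 heterozygotes at 167, 201 and 188, between the groups but nearer the double heterozygotes. Ffar2, a receptor for short-chain fatty acids, read 3266, 2771 and 2697 against 1432, 1636 and 1081 and fell 2.13-fold (limma adjusted p = 0.0294). Pclo, a scaffold of presynaptic release sites, read 1014, 964 and 968 against 592, 586 and 447 and fell 1.83-fold (limma adjusted p = 0.0254). Fbp1, the gluconeogenic fructose-1,6-bisphosphatase, read 891, 824 and 827 against 427, 454 and 530 and fell 1.81-fold (limma adjusted p = 0.0294). For Fbp1 the Pdx1 heterozygotes, at 572, 712 and 745, lay between the groups.

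Mnx1 and Tbx6 are transcription factors among the decreases. Mnx1 is a homeodomain factor required in mice for formation of the dorsal pancreatic bud and later for beta-cell identity. Its probe read 607, 860 and 813 against 250, 336 and 362, and the lowest Sox9 heterozygote was still well above the highest double heterozygote. The decrease was 2.41-fold (log2 -1.27, SE 0.18, limma adjusted p = 0.0294), and the Pdx1 heterozygotes read 238, 284 and 212. Tbx6, a T-box factor of paraxial mesoderm, read 1813, 1971 and 1794 against 1326, 1310 and 1081 and fell 1.51-fold (limma adjusted p = 0.0412).

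Dct encodes dopachrome tautomerase, an enzyme of melanin synthesis. It read 1356, 1281 and 1320 against 598, 545 and 417, a 2.56-fold decrease (log2 -1.36, SE 0.13, limma adjusted p = 0.00796), with Pdx1 heterozygotes at 615, 726 and 629. The other pigment-cell genes measured did not pass. Tyrp1 lay between 77 and 130 on all arrays, Pmel between 155 and 205, and Tyr, the defining enzyme, between 71 and 193.

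Genes of metabolic and digestive enzymes and of metal binding were also among the decreases. Tdh, L-threonine dehydrogenase, read 1276, 1239 and 1136 against 608, 646 and 601, a 1.97-fold decrease (log2 -0.98, SE 0.09, limma adjusted p = 0.00796). Cpb1, which encodes the digestive enzyme carboxypeptidase B1, read 167, 155 and 178 against 97, 120 and 87 and fell 1.66-fold (limma adjusted p = 0.045). Mt2, a metallothionein that binds zinc and copper, read 14799, 14016 and 15217 against 9706, 10727 and 9003 and fell 1.5-fold (limma adjusted p = 0.0294). In these 3 genes no array of one group reached the other, and the Pdx1 heterozygotes read 469, 421 and 527 for Tdh, 88, 98 and 96 for Cpb1 and 9870, 9740 and 10055 for Mt2, all below the Sox9 heterozygotes.

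A set of called genes had Pdx1 heterozygote values at the level of the Sox9 heterozygotes instead. Trim55, a muscle ubiquitin ligase, read 1401, 1518 and 1627 in the Sox9 heterozygotes, 796, 801 and 641 in the double heterozygotes and 1719, 1597 and 1209 in the Pdx1 heterozygotes (2.04-fold lower in the double heterozygotes, limma adjusted p = 0.0294). Prickle2, a planar cell polarity gene, read 730, 675 and 670 against 386, 433 and 322, with Pdx1 heterozygotes at 835, 706 and 742 (1.83-fold lower, limma adjusted p = 0.0294). The kinase genes Mapk8, which encodes JNK1, and Pdpk1, which encodes the kinase that activates AKT, were of this kind. The kinase gene Cdkl1 was not, at 798, 801 and 723 against 464, 500 and 408, with Pdx1 heterozygotes at 417, 427 and 415. Mapk8 read 1521, 1784 and 1542 against 916, 979 and 841, with Pdx1 heterozygotes at 1467, 1519 and 1616 (1.77-fold lower, limma adjusted p = 0.0175). Pdpk1 read 2324, 2448 and 2421 against 1557, 1414 and 1276, with Pdx1 heterozygotes at 2473, 2130 and 2031 (1.7-fold lower, limma adjusted p = 0.029). The same held for Fryl, a homologue of the Drosophila gene furry, at 317, 328 and 307 against 209, 199 and 191 with Pdx1 heterozygotes at 331, 344 and 341 (1.59-fold lower, limma adjusted p = 0.00942). Rian, a noncoding RNA of the imprinted Dlk1-Meg3 region, read 450, 458 and 455 against 305, 300 and 250, with Pdx1 heterozygotes at 503, 471 and 424 (1.6-fold lower, limma adjusted p = 0.0294). These Pdx1 heterozygote values are set beside the others and were not tested. Further genes with a usual symbol that fell by 1.6-fold or more were Tmem171, Eppin, Cdcp1, Zfr, Lrrc4, Cdkl1, Otud3, Myo1e and Ddx25, with log2 differences between -0.96 and -0.68.

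**Figure D1:**
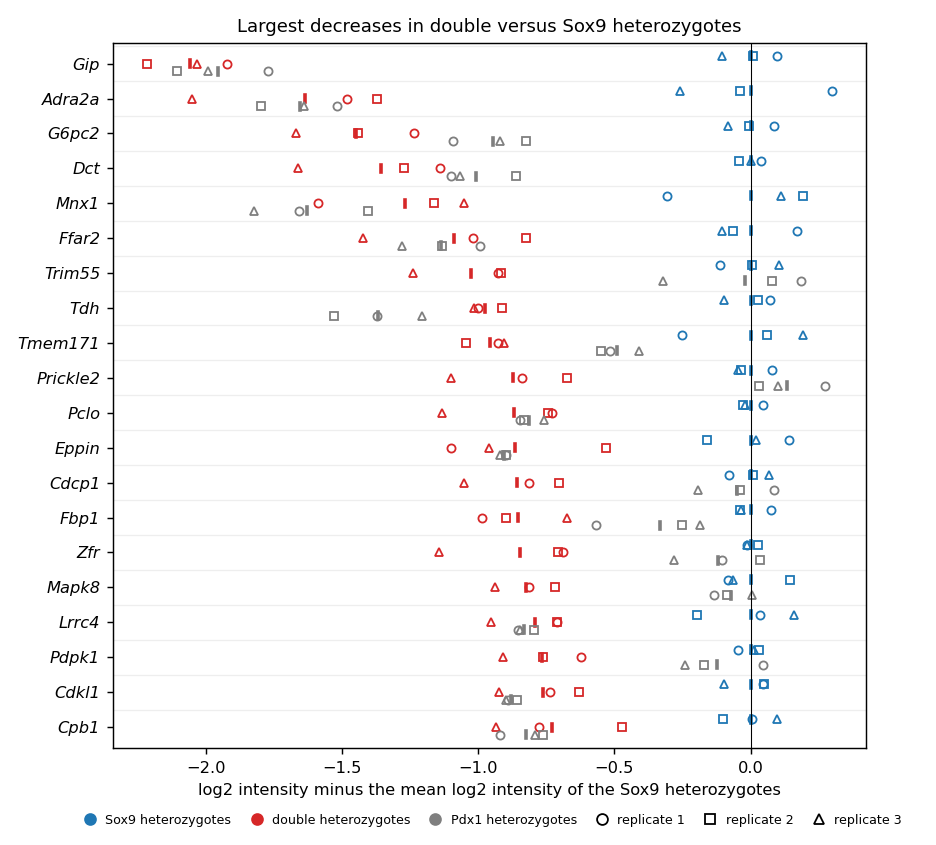
The 20 named genes with the largest decreases among the 57, from Gip at the top to Cpb1. The x axis is the log2 intensity of each array minus the mean of the 3 Sox9 heterozygotes, symbols are single arrays by replicate, and short bars are group means. In every row the 3 double heterozygotes (red) lie left of the 3 Sox9 heterozygotes (blue), as no called gene has overlapping groups. The Pdx1 heterozygotes (grey) lie near the red points for Gip, Adra2a and Mnx1 and near the blue points for Trim55, Prickle2 and Mapk8.

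Onecut2 showed the largest increase among the called genes. It is a cut-homeodomain transcription factor of the same family as Onecut1 (Hnf6) and is made in liver and pancreas progenitors. Its probe read 166, 204 and 245 in the Sox9 heterozygotes and 562, 564 and 1217 in the double heterozygotes. Replicate 3 was the highest, and the lowest double heterozygote was still above 2-fold the highest Sox9 heterozygote. The increase was 3.6-fold (log2 1.85, SE 0.27, limma adjusted p = 0.0341) and stood at log2 1.48 without replicate 3 (limma adjusted p = 0.0149). The Pdx1 heterozygotes read 420, 369 and 396, between the groups.

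Other increases included keratin, reductase, protease and transporter genes. Krt19, a keratin of ducts and simple epithelia, read 1111, 1243 and 1285 against 2167, 1828 and 2548. The groups did not overlap, and the increase was 1.79-fold (log2 0.84, SE 0.13, limma adjusted p = 0.0341), with Pdx1 heterozygotes at 1897, 1605 and 1640. Akr1b7, an aldo-keto reductase found in adrenal and intestine, read 94, 66 and 65 against 262, 176 and 164 and rose 2.66-fold (limma adjusted p = 0.0294), with Pdx1 heterozygotes at 101, 101 and 100. Spdef, an ETS factor of goblet cell differentiation, read 219, 238 and 238 against 342, 324 and 388 and rose 1.51-fold (limma adjusted p = 0.0336). Both genes for transmembrane serine proteases on the list of increases had double heterozygotes wholly above, as had every called increase. Tmprss2, a protease of epithelial surfaces, read 282, 278 and 285 against 439, 449 and 575 and rose 1.72-fold (limma adjusted p = 0.0341). Tmprss6, the liver protease that controls hepcidin, read 279, 275 and 290 against 556, 433 and 600 and rose 1.87-fold (limma adjusted p = 0.0254). Slc44a4, a membrane transporter, read 135, 130 and 136 against 199, 179 and 216 and rose 1.48-fold (limma adjusted p = 0.0412).

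Both Itih2 and Habp2, genes of plasma proteins, rose. Itih2, a heavy chain of the plasma protein inter-alpha-trypsin inhibitor, read 314, 351 and 493 against 854, 839 and 1387, a 2.63-fold increase (log2 1.40, SE 0.22, limma adjusted p = 0.0386). Habp2, a plasma serine protease, read 521, 580 and 582 against 843, 872 and 950 and rose 1.58-fold (limma adjusted p = 0.0178). In neither gene did a double heterozygote reach down to the Sox9 heterozygotes. The Pdx1 heterozygotes read 803, 762 and 794 for Habp2, nearer the double heterozygotes. St8sia3, a sialyltransferase, rose 1.91-fold, Pik3ap1, a phosphoinositide 3-kinase adaptor, 1.87-fold, and Aldh1a7, an aldehyde dehydrogenase, 1.85-fold. Atp8a2, a phospholipid flippase, and Sowahb, an ankyrin repeat gene, rose 1.39-fold and 1.38-fold.

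**Figure D2:**
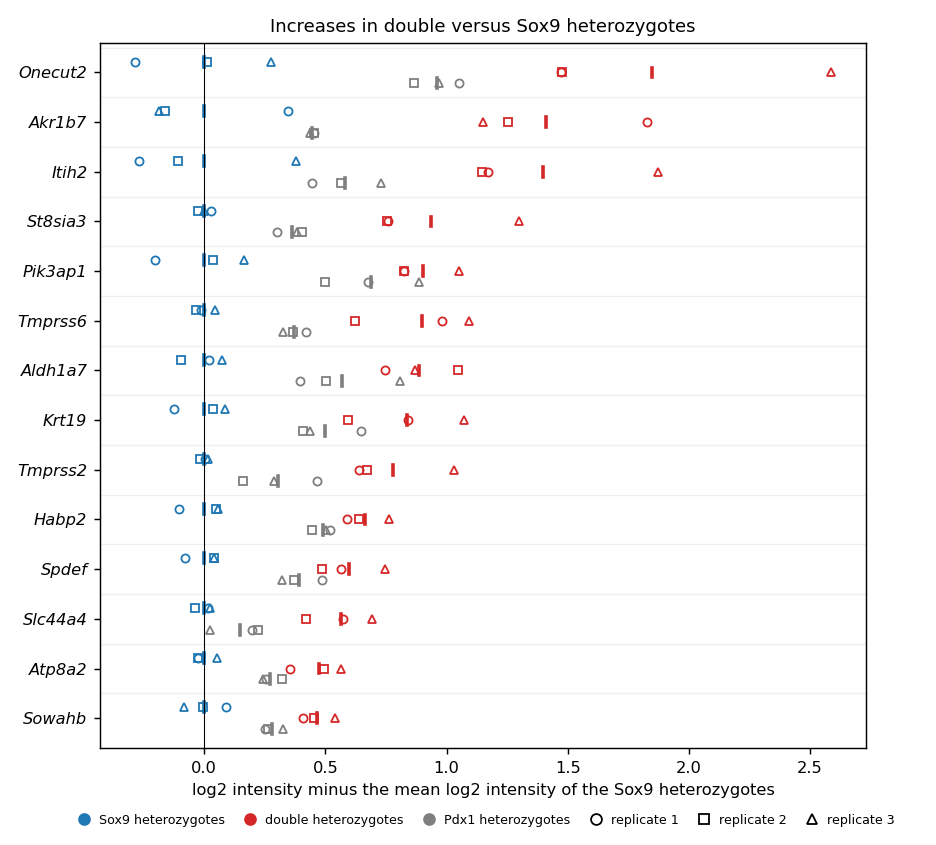
Named genes that rose in the double heterozygotes, from Onecut2 to Sowahb, on the same axis as the plot of decreases (log2 intensity minus the mean of the Sox9 heterozygotes). Symbols are single arrays and short bars are group means. All red points lie right of all blue points in each row, as no called gene has overlapping groups. Replicate 3 (triangles) is the rightmost red point for Onecut2, Itih2 and St8sia3.

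Promoters of genes among the largest changes are shown because the labelled difference is an allele of a DNA-binding factor. Those of Onecut2 and St8sia3, which rose more than Pik3ap1, are not shown. RefSeq promoter sequence on GRCm38.p6, 250 bases before to 50 bases after the start, was held for 13560 measured genes, among them 10 of the increases and 29 of the decreases. Motifs were searched on both strands. The homeodomain core was searched as TAATTA and the caudal-type homeodomain motif as TTTATNG. The motif of SOX factors was searched as ACAATG, that of forkhead factors as TGTTTAC and that of GATA factors as AGATAA. An E-box of basic helix-loop-helix factors was searched as CAGATG. Capitals mark matches, and a sequence matched on the reverse strand shows the reverse complement. Gip lies at chr11:96024295-96024594 on the plus strand, Adra2a at chr19:54045009-54045308 on the plus strand and G6pc2 at chr2:69210823-69211122 on the plus strand. Akr1b7 lies at chr6:34412112-34412411 on the plus strand Itih2 at chr2:10130634-10130933 on the minus strand and Pik3ap1 at chr19:41385053-41385352 on the minus strand.
Gip: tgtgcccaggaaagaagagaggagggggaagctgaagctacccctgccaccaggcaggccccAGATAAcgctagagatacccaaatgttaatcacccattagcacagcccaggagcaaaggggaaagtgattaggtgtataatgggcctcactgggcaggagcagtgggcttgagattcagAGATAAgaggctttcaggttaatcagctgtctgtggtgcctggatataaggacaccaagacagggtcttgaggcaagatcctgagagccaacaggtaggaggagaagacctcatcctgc
Adra2a: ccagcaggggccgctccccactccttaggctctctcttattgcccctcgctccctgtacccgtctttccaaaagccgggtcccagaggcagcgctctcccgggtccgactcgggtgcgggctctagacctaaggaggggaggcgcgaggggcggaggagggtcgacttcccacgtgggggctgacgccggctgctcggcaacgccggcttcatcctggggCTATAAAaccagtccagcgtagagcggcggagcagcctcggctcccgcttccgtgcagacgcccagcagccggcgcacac
G6pc2: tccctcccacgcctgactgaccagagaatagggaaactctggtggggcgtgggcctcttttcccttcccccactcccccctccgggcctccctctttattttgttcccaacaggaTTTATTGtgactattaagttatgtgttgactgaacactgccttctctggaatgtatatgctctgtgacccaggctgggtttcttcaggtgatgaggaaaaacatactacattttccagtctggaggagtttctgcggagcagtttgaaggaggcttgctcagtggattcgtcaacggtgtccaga
Akr1b7: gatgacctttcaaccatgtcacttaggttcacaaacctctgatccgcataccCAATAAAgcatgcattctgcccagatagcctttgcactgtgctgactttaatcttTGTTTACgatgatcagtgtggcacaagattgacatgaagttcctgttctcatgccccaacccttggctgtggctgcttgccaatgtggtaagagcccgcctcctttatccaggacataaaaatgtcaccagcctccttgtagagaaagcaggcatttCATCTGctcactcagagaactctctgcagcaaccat
Itih2: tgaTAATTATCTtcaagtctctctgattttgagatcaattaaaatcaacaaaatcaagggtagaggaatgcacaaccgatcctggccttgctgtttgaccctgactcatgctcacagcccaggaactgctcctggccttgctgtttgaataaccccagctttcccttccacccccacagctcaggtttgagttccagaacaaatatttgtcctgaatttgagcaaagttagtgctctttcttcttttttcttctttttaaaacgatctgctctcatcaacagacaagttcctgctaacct
Pik3ap1: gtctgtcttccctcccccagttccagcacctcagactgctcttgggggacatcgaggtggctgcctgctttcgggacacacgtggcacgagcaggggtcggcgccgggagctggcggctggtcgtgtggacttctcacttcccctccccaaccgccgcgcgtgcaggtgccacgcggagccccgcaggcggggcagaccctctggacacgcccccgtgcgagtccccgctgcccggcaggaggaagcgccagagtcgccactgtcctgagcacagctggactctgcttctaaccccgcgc
The Gip window held AGATAA at 2 places, and AGATAA was found in 4 of the 29 decreases, 1 of the 10 increases and 8.02% of all 13560 promoters. Adra2a and G6pc2 each held TTTATNG, as did Akr1b7. The Adra2a match reads CTATAAA and so contains the TATA-box letters. TTTATNG occurred in 8 of the 29 decreases, 3 of the 10 increases and 8.36% of all promoters. In the Itih2 window TAATTA and AGATAA overlapped, and the Pik3ap1 window held none of the motifs. TAATTA occurred in 2 of the 29 decreases, 1 of the 10 increases and 3.56% of all promoters, and ACAATG in 2, 1 and 8.58%. TGTTTAC was present in 1 increase, Akr1b7, and in 2.72% of all promoters, and CAGATG in 5 decreases, 2 increases and 13.2%. A match is a run of letters and not a measured binding site, and no match says only that these letters are not in the window.

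Gene lists describe how broader programmes lay. Few members of any list passed the test, so each list is given by its calls, by how many members had groups that do not overlap, and by its median log2 difference. Over all genes, 18.6% had double heterozygotes wholly above, 16.7% wholly below, and the median difference was -0.001. Members named beyond the 2 largest uncalled ones of a list were chosen after their values were seen.

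Among hormone genes of islet and gut, more members lay below than above the Sox9 heterozygotes. Of 23 measured, Gip fell and none rose, 8 (34.8%) lay wholly below, none lay wholly above, and the median was -0.18. Iapp, the beta-cell hormone amylin, read 814, 764 and 852 against 485, 352 and 526 (log2 -0.85, SE 0.14), and missed the threshold (limma adjusted p = 0.0533). Pyy, the peptide of early endocrine cells, read 120513, 108428 and 93615 against 80408, 73994 and 88876 (limma adjusted p = 0.115), with groups that did not overlap. The insulin and glucagon genes were less separated than Iapp. Ins2 read 774, 888 and 1036 against 753, 524 and 755 (log2 -0.42, limma adjusted p = 0.183, and log2 -0.24 without replicate 2 of the double heterozygotes). Its groups did not overlap, but 774 and 755 lay close together. Ins1, at 493, 529 and 644 against 550, 347 and 568, overlapped. Gcg lay between 95 and 120 on all 9 arrays. Ghrl, the ghrelin gene, read 2087, 1710 and 2030 against 2383, 1676 and 2867 and overlapped.

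Of 26 genes of glucose sensing and insulin secretion, Adra2a and G6pc2 fell and none rose, 7 (26.9%) lay wholly below and 2 wholly above, and the median was -0.14. Both subunits of the ATP-sensitive potassium channel had double heterozygotes wholly below without passing. Kcnj11 read 380, 442 and 453 against 273, 257 and 321 (log2 -0.58, SE 0.11, limma adjusted p = 0.0799). Abcc8 read 8454, 9127 and 10159 against 7135, 5993 and 7222 (log2 -0.45, SE 0.10, limma adjusted p = 0.0912). The glucose transporter gene Slc2a2 lay the other way, at 1679, 1909 and 1923 against 2342, 2586 and 3146 (log2 0.54, limma adjusted p = 0.0938), with no overlap. No endocrine transcription factor of 27 measured passed, the median was 0.00, and 3 lay wholly below and 2 wholly above. Pax6, needed for hormone expression, read 1370, 1118 and 1094 against 917, 814 and 743 (limma adjusted p = 0.0938). Neurog3, the factor that starts endocrine differentiation, read 684, 413 and 439 against 573, 412 and 255 and overlapped, with a log2 difference of -0.35 that was -0.04 without replicate 3 of the double heterozygotes.

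Of 31 acinar genes Cpb1 fell and none rose, with 10 (32.3%) wholly below, 3 wholly above and a median of -0.28. Arrays of the double heterozygotes differed in this list. Their list medians, relative to the Sox9 heterozygotes, were -0.23, -0.02 and -0.47 for replicates 1 to 3, and the median difference without replicate 3 was -0.14. Without it 10 members lay wholly below and 5 wholly above, counts that cannot fall when an array is left out. Cela1, an elastase, read 1338, 1403 and 1610 against 759, 935 and 511 (log2 -1.02, limma adjusted p = 0.0715), and Serpini2 read 1135, 946 and 1269 against 574, 682 and 213 (log2 -1.34, limma adjusted p = 0.111). Both had replicate 3 as the lowest array, and without it the Serpini2 difference was -0.825. Members went in both directions. Cpa1, an enzyme gene of early tip progenitors, read 75082, 85744 and 74082 against 109553, 108986 and 112072 (log2 0.50, SE 0.11, limma adjusted p = 0.0938), and its double heterozygotes were all above.

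Progenitor factors were mixed. Of 30 measured, Onecut2 rose and Mnx1 fell, and 7 lay wholly above and 7 wholly below (23.3% each way). The median was 0.07, or 0.02 without replicate 3 of the double heterozygotes. Gata4 read 110, 150 and 156 against 190, 207 and 293 (log2 0.72, limma adjusted p = 0.1). Onecut1 read 2949, 3361 and 3374 against 4602, 3829 and 4931 (log2 0.46, limma adjusted p = 0.0938). On the lower side, Rbpjl, the partner of Ptf1a in acinar cells, read 2694, 5145 and 5885 against 2482, 3117 and 1765 and overlapped. Meis2 read 4067, 4536 and 4634 against 2705, 3277 and 2811 (log2 -0.59, limma adjusted p = 0.0799), with Pdx1 heterozygotes higher at 6169, 4815 and 4983. Foxa3, whose regulatory sequence drives the Cre, read 1029, 987 and 1002 against 1105, 1006 and 1193, and the Pdx1 heterozygotes, whose label names no Cre, read 521, 545 and 548. Nkx6-1, Ptf1a and Hes1 overlapped between the groups. Of 29 duct and trunk genes Krt19 rose, 7 (24.1%) lay wholly above and 1 wholly below, namely the cilium gene Pkhd1 at 239, 266 and 255 against 174, 163 and 137 (limma adjusted p = 0.0799). Of 60 epithelial junction and polarity genes, Krt19 rose and none fell, with 21 (35.0%) wholly above, 8 wholly below and a median of 0.15.

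Neighbouring organs of the foregut were represented by their own lists. Of 48 intestinal genes, Akr1b7 and Spdef rose and none fell, and 13 (27.1%) lay wholly above and 3 wholly below, with a median of 0.12. Of 48 liver genes Itih2 rose and none fell, and 18 (37.5%) lay wholly above and 3 wholly below, with a median of 0.23 (0.18 without replicate 3 and 0.16 without replicate 1). Albumin, Alb, read 412, 314 and 271 against 1125, 572 and 881, and the Pdx1 heterozygotes read 237, 333 and 309. Its log2 difference was 1.34 (SE 0.25), and it did not pass (limma adjusted p = 0.0715). Afp, alpha-fetoprotein of fetal liver and yolk sac, read 26611, 23400 and 23792 against 41591, 34713 and 50311 (log2 0.77, SE 0.14, limma adjusted p = 0.0713). Vtn, the plasma protein vitronectin, read 16166, 20942 and 22434 against 29190, 27063 and 34255 (limma adjusted p = 0.1). In these 3 genes every double heterozygote was above every Sox9 heterozygote. Fgg, a fibrinogen chain, read 711, 648 and 772 against 462, 364 and 580 and lay wholly below (limma adjusted p = 0.115). Whether liver cells in the dissections contributed was not tested. Of 20 stomach genes none passed, 3 lay wholly above and none wholly below, and Nkx6-3 read 108, 91 and 94 against 154, 142 and 400 (log2 1.08, limma adjusted p = 0.112), a difference of 0.60 without replicate 3.

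Genes of glycolysis and the hypoxia response had the largest share of members wholly above among the lists plotted. None of the 34 passed, but 18 (52.9%) lay wholly above and none wholly below, and the median was 0.30. Replicate 3 was the highest array, with list medians of 0.19, 0.19 and 0.45 for replicates 1 to 3. Without it the median was 0.18, 18 members lay wholly above and 1 wholly below, where 21.5% and 18.8% of all genes did so. Such counts cannot fall when an array is left out. Pfkl, a phosphofructokinase, read 3055, 2493 and 3744 against 4908, 4574 and 8492 (log2 0.91, SE 0.23, limma adjusted p = 0.1). Its difference was 0.63 without replicate 3. Pkm, pyruvate kinase, read 5699, 7692 and 8236 against 9617, 9643 and 19830 (log2 0.78, limma adjusted p = 0.121), and Ldha, lactate dehydrogenase, read 18512, 21078 and 22649 against 25401, 26232 and 42766 (log2 0.56, limma adjusted p = 0.119). Bnip3, a hypoxia-induced mitophagy gene, read 1271, 1325 and 1338 against 1783, 1616 and 2945 (log2 0.64, limma adjusted p = 0.111). Without replicate 3 the log2 differences were 0.44 for Pkm, 0.32 for Ldha and 0.37 for Bnip3. Ndrg1, another hypoxia-induced gene, differed less between replicates, at 3353, 3039 and 3157 against 4071, 3937 and 4037 (log2 0.34, SE 0.07, limma adjusted p = 0.088). The main glucose transporter gene Slc2a1, at 16403, 14075 and 11721 against 13581, 13570 and 15885, and Hk2 overlapped. The Pdx1 heterozygote arrays had list medians of 0.14, 0.11 and 0.11.

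**Figure D3:**
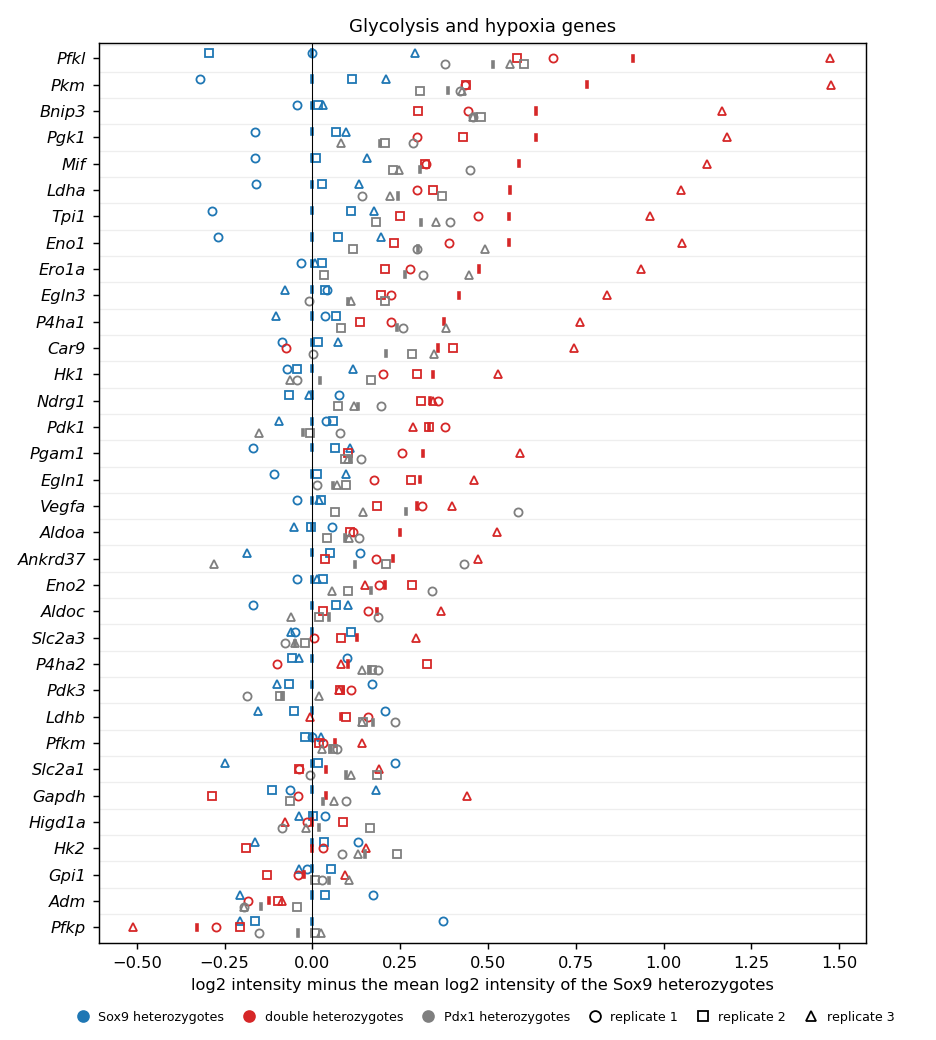
All 34 measured genes of glycolysis and the hypoxia response, ordered by the difference between the groups. The x axis is log2 intensity minus the mean of the 3 Sox9 heterozygotes, symbols are arrays and short bars are group means. Replicate 3 of the double heterozygotes (red triangles) lies above 1 on this axis for Pfkl, Pkm, Bnip3, Pgk1, Mif, Ldha and Eno1, and the other red points of these genes lie left of it but right of every blue point.

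Signalling and growth genes showed small differences. Of 37 FGF and receptor tyrosine kinase genes none passed, 16 (43.2%) lay wholly above and none wholly below, with a median of 0.18. Without replicate 3 the median was 0.12, with 16 wholly above and 2 wholly below, counts that leaving out an array cannot lower. Ccnd1, cyclin D1, read 3784, 3788 and 3653 against 5896, 4614 and 6031 (log2 0.55, SE 0.10, limma adjusted p = 0.0759). Etv4 and Etv5, ETS targets of FGF signalling, had replicate 3 as their highest array, with Etv4 at 492, 667 and 729 against 805, 812 and 1768 and Etv5 at 137, 163 and 180 against 196, 216 and 410. Their log2 differences of 0.76 and 0.70 became 0.38 and 0.37 without it. The feedback inhibitors Dusp6 and Spry2 overlapped, with Dusp6 at 16099, 14734 and 14065 against 12556, 12270 and 14191. Erbb2, a receptor tyrosine kinase, read 2538, 2711 and 2628 against 3485, 3180 and 3470 (limma adjusted p = 0.0954). None of 20 hedgehog genes passed. In that list 8 (40.0%) lay wholly above and 3 wholly below, and the receptor subunit gene Smo read 442, 493 and 540 against 561, 656 and 610. None of 57 cell cycle genes passed, with 19 (33.3%) wholly above and 10 wholly below, and none of 34 Notch genes, with 4 each way. Of 59 Wnt pathway genes Prickle2 fell, with 12 wholly above, 9 wholly below and a median of -0.07 (-0.04 without replicate 3). Of 23 imprinted growth genes, a list that does not hold Rian, none passed, and 9 (39.1%) lay wholly above and 3 wholly below. Of the Dlk1-Meg3 region, Dlk1 read 30728, 37305 and 41919 against 50775, 46604 and 69643 (log2 0.59, limma adjusted p = 0.104), Meg3 read 2106, 2733 and 3010 against 2028, 1921 and 2039 (log2 -0.37, limma adjusted p = 0.179), and Rian fell.

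Markers of other cells that a dissection could hold were examined beside these results. Of 41 neuron, glia and neural crest markers Dct fell and none rose, with 11 (26.8%) wholly below, 2 wholly above and a median of -0.20. Tubb3, neuronal tubulin, read 917, 845 and 733 against 637, 541 and 546 (log2 -0.53, limma adjusted p = 0.104), and Stmn2 read 338, 204 and 199 against 168, 188 and 151 (log2 -0.51, and -0.26 without replicate 1 of the Sox9 heterozygotes). Endocrine cells also transcribe such neuronal genes. None of 42 mesenchyme markers passed, with a median of -0.08, and none of 27 endothelium markers, with a median of -0.11. Without replicate 3 of the double heterozygotes these medians were -0.02 and -0.07. None of 22 erythroid markers passed, yet replicate 3 of the double heterozygotes had an erythroid list median of 0.55 against -0.06 and -0.17 in replicates 1 and 2. The embryonic globin gene Hba-x read 79504 on that array and between 22942 and 50379 on the other 8. Of 31 white blood cell markers and 34 immediate early and dissection stress genes none passed, with medians of -0.10 and -0.02. The white blood cell median was -0.03 without replicate 3 of the double heterozygotes. Whether blood content or another feature of replicate 3 contributed to the lists in which it stands highest was not tested.

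**Figure D4:**
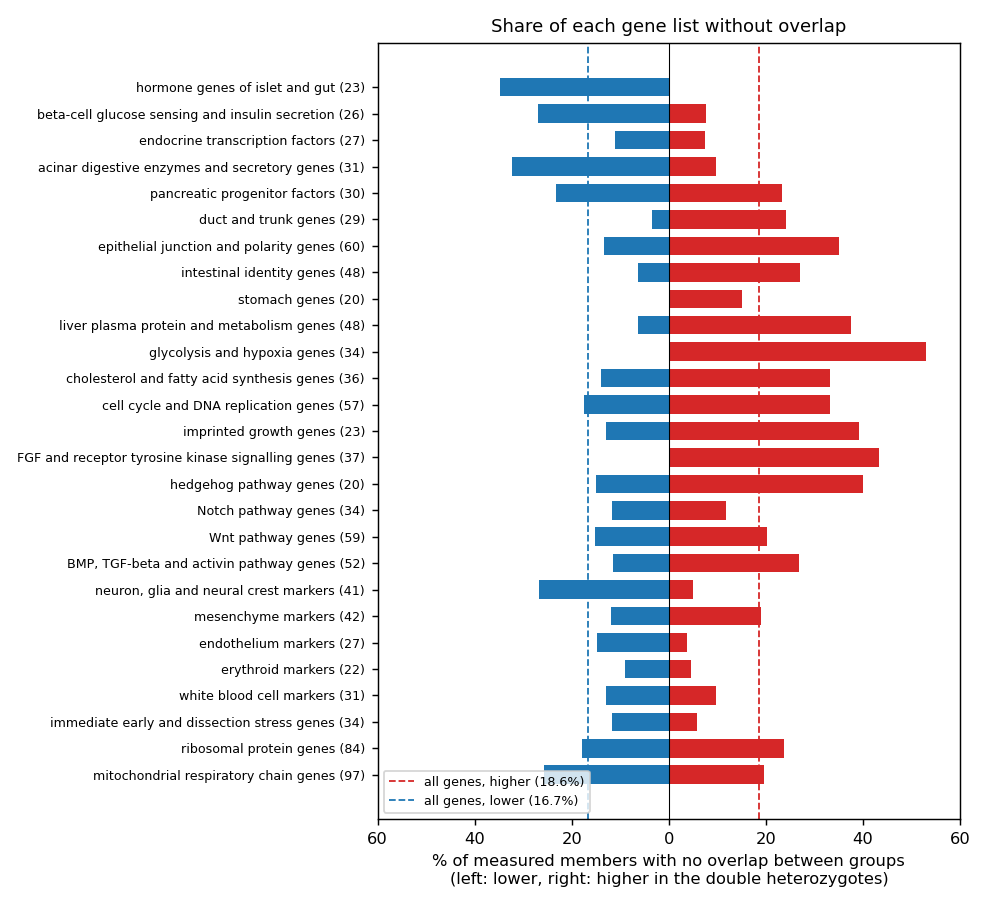
Share of each gene list with double heterozygote arrays wholly above (red, right) or wholly below (blue, left) the Sox9 heterozygotes, in percent of the members measured, whose number stands in brackets. Dashed lines mark the same shares over all genes, 18.6% above and 16.7% below. Glycolysis and hypoxia genes reach 52.9% above, and hormone genes reach 34.8% below with none above.

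Several of the largest differences did not pass, and in these the arrays within a group lay far apart. Prap1, a proline-rich acidic protein of gut and uterus epithelium, had the largest difference of all. It read 190, 127 and 116 in the Sox9 heterozygotes and 10878, 869 and 457 in the double heterozygotes, with Pdx1 heterozygotes at 196, 301 and 236. All 3 double heterozygotes were above the Sox9 heterozygotes, and replicate 1 was far above the other two. The log2 difference of 3.53 (SE 0.93, limma adjusted p = 0.103) became 2.16 without replicate 1 (limma adjusted p = 0.0626). Replicate 1 alone was high for other epithelial genes. Aoc1, which encodes the histamine-degrading diamine oxidase of gut, read 108, 90 and 85 against 2078, 195 and 98, Guca2b, which encodes uroguanylin, 168, 119 and 125 against 2218, 237 and 162, and Kif27, a kinesin, 123, 121 and 109 against 4028, 179 and 114. Sprr2f, a small proline-rich protein gene, read 74, 74 and 77 against 1322, 117 and 88. Without replicate 1 the log2 differences of Aoc1, Guca2b, Kif27 and Sprr2f were 0.56, 0.53, 0.28 and 0.44. Cdx2, the homeodomain factor that specifies intestine, had another order, at 72, 77 and 67 against 85, 216 and 465, so that replicate 3 was highest and replicate 1 close to the Sox9 heterozygotes. Its log2 difference was 1.51 (SE 0.47, limma adjusted p = 0.115), or 0.92 without replicate 3, and the Pdx1 heterozygotes read 75, 76 and 94. Krt20, a keratin of differentiated gut epithelium, read 186, 247 and 196 against 279, 419 and 621 (2.01-fold higher, limma adjusted p = 0.103). In the lower direction, Gabrg1 rested on a single Sox9 heterozygote, at 61, 124 and 12013 against 60, 62 and 55, and its log2 difference of -2.93 became -0.56 without that array. Slc4a7, a bicarbonate transporter, read 74908, 25024 and 9428 against 10304, 5850 and 3243, with Pdx1 heterozygotes at 15704, 13735 and 69731, so that its spread within groups was as wide as the difference between them (log2 -2.17, SE 0.81, limma adjusted p = 0.143, and log2 -1.40 without replicate 1 of the Sox9 heterozygotes). In the authors' deposited table Prap1 has an FDR of 1.2e-10, Slc4a7 1.82e-09 and Cdx2 0.0015.

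**Figure D5:**
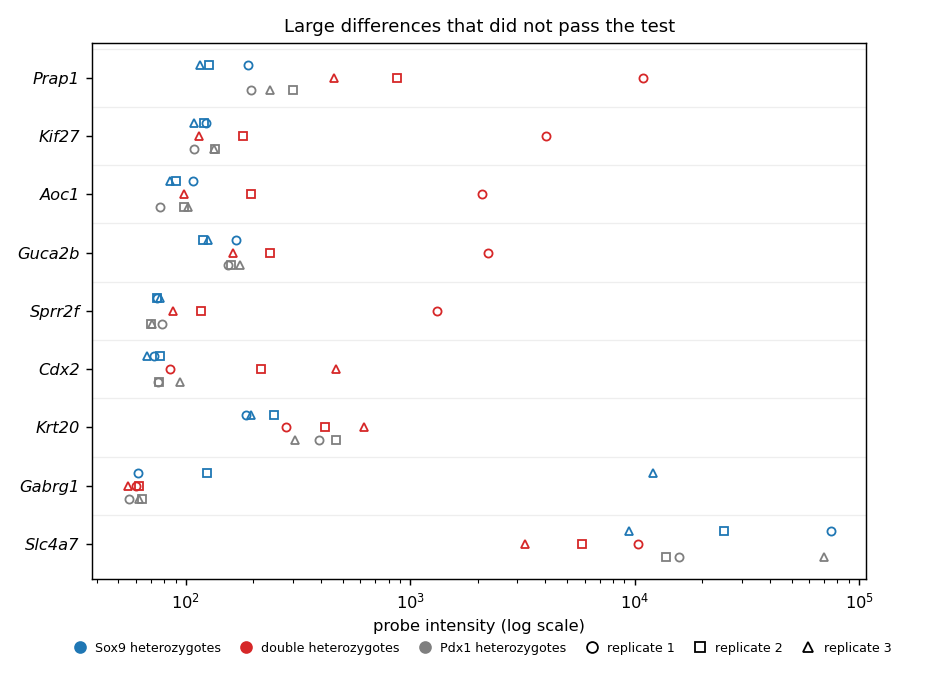
Probe intensity (log axis) on every array for 9 genes with large differences that did not pass the test. Symbols are single arrays by replicate, coloured by group. Prap1, Kif27, Aoc1, Guca2b and Sprr2f are highest in replicate 1 of the double heterozygotes (red circles), Cdx2 and Krt20 in replicate 3 (red triangles), and Gabrg1 in replicate 3 of the Sox9 heterozygotes.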

How the data were processed

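RNA of microdissected dorsal pancreatic epithelium was labelled with Cy3 and hybridised to Agilent arrays of 1 colour according to the labels. The authors deposited a value table of 18541 probes on 9 arrays, whose values are normalized intensity on a linear scale as the values show. Details not given in the sources used here include the normalization, the background treatment and the choice of 1 probe per gene. A second table holds the log2 ratios, signed folds (a score) and FDR values, read as q-values, that the authors deposited per the file headers. The group means of log2 intensity computed here matched those log2 ratios within 4.2e-08, which ties the value table to its groups. The submitters' processing notes name limma without a version or a role. That table also holds 9 columns named by array barcode, which were not assigned to samples and not used, so slide could not be tested as a batch.

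Log2 intensities of all 9 arrays were fitted with limma 3.58.1 in R 4.3.3 (lmFit, eBayes, 6 residual degrees of freedom), with group as the only term and no filter on dim probes. The contrast was double minus Sox9 heterozygotes, with Benjamini-Hochberg adjustment over all 18541 genes and a call at an adjusted p under 0.05. Every adjusted p in the text not credited to the authors comes from limma. The fit was tested on simulated data with known changes. Replicates are those the labels number. The series text calls them biological, and the number of arrays limits the precision. Symbols were updated through Entrez numbers for 17183 genes, of which 4384 differ from the table.

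With earlier results of these data known, the comparison, the 54 gene lists, the motifs and the naming rule were chosen. The rule names Sox9, Pdx1 and the 20 largest calls per direction with a usual symbol and groups that do not overlap. It also names up to 6 called and 2 uncalled members per list, the 10 smallest adjusted p-values and the 5 largest differences that did not pass. Further genes are examples chosen after their values were seen. A few selected genes and 1 searched motif are not reported here. Whether equal replicate numbers pair the arrays could not be decided, since each deviation is taken from a mean of only 3 arrays. Deviations of same-numbered Sox9 and double heterozygotes correlated at 0.15, -0.11 and 0.24. Those of differently numbered arrays of these groups correlated at -0.29 to 0.22. Alternatives were the 6 arrays alone, array weights, the authors' deposited FDR, an intensity trend, other normalizations, a filter on dim probes, a replicate block, other thresholds and leaving out each of the 6 compared arrays. No Pdx1 heterozygote array was left out.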

Additional observations from a re-analysis of the deposited data

How the results depend on the processing

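No gene called in the main test changed direction under any alternative fit. Fits to median-centred arrays gave 59 calls (56 shared with the 57), quantile normalization 58 (56 shared), an intensity trend with a robust prior 51 (49 shared) and removal of probes below the median intensity 67 (36 shared). The fit on the 6 arrays of both groups alone, which has fewer degrees of freedom, called 3 genes, 0 higher and 3 lower. With array weights 1302 genes were called, 604 higher and 698 lower, including all 57, where replicate 2 of the Sox9 heterozygotes was given a weight of 4.26 and replicate 3 of the double heterozygotes 0.344. The authors' deposited table gives 4292 genes at an FDR under 0.05, 2228 higher and 2064 lower, and the cause of the gap was not tested. A threshold of 0.01 gave 5 genes (0 higher, 5 lower), a threshold of 0.1 gave 463 (187 higher, 276 lower), and a 2-fold minimum gave 11 (4 higher, 7 lower). Leaving out each of the 6 compared arrays in turn gave between 4 and 68 calls in all, 0 to 26 higher and 4 to 42 lower. The totals were 4, 68 and 24 without replicates 1, 2 and 3 of the double heterozygotes, and 13, 8 and 10 without those of the Sox9 heterozygotes. A replicate block, for a pairing that the arrays could not decide, gave 57 calls, of which 38 were among the original 57. Across the list counts of members without overlap, added after the data were seen, leaving out an array raises the share over all genes too, to 21.5% above and 18.8% below without replicate 3 of the double heterozygotes. Leaving out an array can only keep or raise such a count, so an unchanged count is no check on that array. Without detection calls, no background level could be set for dim probes.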

Other observations

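Malat1 and Kcnq1ot1, long nuclear RNAs picked after their values were seen, did not pass the test. Malat1 read 2523, 2722 and 2560 in the Sox9 heterozygotes and 1804, 1733 and 1409 in the double heterozygotes (log2 -0.67, limma adjusted p = 0.0954), and Kcnq1ot1 read 1585, 1702 and 1840 against 1383, 1122 and 1127 (log2 -0.50, limma adjusted p = 0.11). Neither gene's groups overlapped, as in 35.3% of all genes.

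Genes were also counted in which 1 array stood apart while the other 2 of its group lay within 1.5-fold of each other. Those at least 2-fold above both others numbered 60, 32 and 35 on the Sox9 heterozygote arrays and 49, 43 and 70 on the double heterozygote arrays, in replicate order. Genes that far below both others numbered 7, 5 and 23, and 4, 8 and 10. Sex-linked genes differed within both groups. Eif2s3y of the Y chromosome read 2639, 2278 and 608 in the Sox9 heterozygotes and 733, 2324 and 1262 in the double heterozygotes. Xist of the X chromosome read 128, 139 and 453 against 362, 57 and 156. Whether the sex of the pooled embryos contributed to any difference was not tested. C3 and Cfb, complement genes, were highest in replicate 1 of the double heterozygotes, with C3 at 4208, 1077 and 989 against 814, 647 and 653 and Cfb at 937, 375 and 338 against 238, 213 and 209. Without that array their log2 differences of 1.23 and 1.16 became 0.56 and 0.70. Prdm16, a transcriptional regulator, read 723, 278 and 724 against 2027, 1372 and 2258, with Pdx1 heterozygotes at 1312, 581 and 1895, and replicate 2 was the lowest array in each group.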
